A study of Mus musculus with 75 samples.

Results

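The Na/K-ATPase of the plasma membrane exports sodium and imports potassium against their gradients at the cost of ATP. Its catalytic alpha subunit needs a beta subunit, a single-pass glycoprotein that carries the pump to the cell surface and shapes its affinity for potassium, and in many tissues a small FXYD protein binds the complex and tunes its kinetics. In the cochlea the sensory hair cells take up potassium during each mechanical stimulus, and the supporting cells around them take up and pass on the potassium that hair cells release, so both cell classes depend on these gradients. The 7 genes described here were chosen by name as sodium pump subunits and FXYD regulators: the beta subunit genes Atp1b1, Atp1b2 and Atp1b3 and the regulator genes Fxyd1, Fxyd2, Fxyd6 and Fxyd7. They are 7 of the 55291 genes in the count table, and the table held a row for each of them.

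The data were Smart-Seq single-cell RNA-Seq counts of 75 hand-picked, Tdtomato+ mouse cochlear cells in 5 groups, all from the C57BL/6 strain. The 17 WT_P30 OHCs (outer hair cells) came from Slc26a5 CreER/+; Ai9/+ mice given tamoxifen at P20 and P21 and taken at P30. The 16 WT_P60 SCs (supporting cells, mainly pillar and Deiters cells) came from Fgfr3-iCreER+; Ai9/+ mice given tamoxifen at P30 and P31 and taken at P60. The other 42 cells were taken at P60 from mice named Fgfr3-Atoh1-Ikzf2-DTR. They carried the Cre transgene Fgfr3-iCreER+, the Cre-dependent Atoh1 transgene CAG-LSL-Atoh1+, the Cre-dependent Ikzf2 allele Rosa26 CAG-LSL-Ikzf2/+, which also encodes Tdtomato, and the diphtheria toxin receptor allele Slc26a5 DTR/+. These mice had tamoxifen at P30 and P31 and diphtheria toxin at P36, so that ectopic Atoh1 and Ikzf2, both transcription factors, were switched on in supporting cells and the endogenous OHCs were damaged. The study sorted these 42 cells by the hair cell gene Myo7a and the OHC motor gene Slc26a5 (Prestin) into 11 OHC-like cells (positive for both), 16 nascent HCs (Myo7a alone) and 15 cells negative for both, the SCs failing to become HCs, called failing SCs here. None of the 7 genes entered that sorting. Both wild-type groups also carried a Cre allele, the 2 ages differ, and the number of mice behind each group is not given in the sources used here, so the tests below measure the spread between cells, which may share animals.

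Total counts ranged from 4264780 to 22934062 per cell, and 3348 to 9654 genes per cell reached 1 CPM (a read count scaled to library size). Each wild-type group had a library series of its own, so group and series cannot be told apart in any comparison with wild-type cells, while the 42 induced cells fell in series A to E. These series were read from the library numbers in the sample descriptions, and nothing in the labels says that a series is a batch. The labels were checked against markers. All 17 OHCs reached 1 CPM for Myo7a and Slc26a5, and none of the 16 WT_P60 SCs did. Slc26a5 also reached 1 CPM in 3 of 16 nascent HCs, and Myo7a in 3 of 15 failing SCs, although these groups are defined as negative for them. The inner hair cell markers Otof and Slc17a8 reached 1 CPM in 14 and 2 of 17 OHCs, Otof at a median of 427 CPM. A supporting cell marker did so in 3 of 17 OHCs. Of the other OHC markers, Espn reached 1 CPM in all 11 OHC-like cells, Lmo7 in 8, Ocm in 7 and Tmc1 in 2. Mbp, the gene of myelin basic protein, made by glia, reached 1 CPM in 9 of 11 OHC-like cells, 11 of 16 nascent HCs and 2 of 15 failing SCs, and had 0 counts in the OHCs and WT_P60 SCs. A macrophage marker reached 1 CPM in 1 OHC and in no other cell, and haemoglobin genes summed to 2295 CPM in OHC-like cell 2 and to at most 78.0 CPM elsewhere.

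Fxyd6 was high in most WT_P60 SCs and below 1 CPM in all cells of the other groups, and Atp1b3 was the only beta subunit gene with every WT_P60 SC well above 1 CPM. For these genes, high in the WT_P60 SCs, the 250 bases before the annotated start are shown, read from RefSeq promoters (GRCm38.p6), with matches to the E-box letters CANNTG in capitals, because Atoh1, induced in the 42 cells, belongs to a factor family that binds E-boxes. The Fxyd6 window is chr9:45369935-45370184 on the plus strand and the Atp1b3 window chr9:96364432-96364681 on the minus strand.
Fxyd6: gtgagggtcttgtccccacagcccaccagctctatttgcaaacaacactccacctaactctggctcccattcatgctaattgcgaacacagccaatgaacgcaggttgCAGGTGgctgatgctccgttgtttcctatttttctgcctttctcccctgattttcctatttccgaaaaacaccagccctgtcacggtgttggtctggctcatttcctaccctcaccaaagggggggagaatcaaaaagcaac
Atp1b3: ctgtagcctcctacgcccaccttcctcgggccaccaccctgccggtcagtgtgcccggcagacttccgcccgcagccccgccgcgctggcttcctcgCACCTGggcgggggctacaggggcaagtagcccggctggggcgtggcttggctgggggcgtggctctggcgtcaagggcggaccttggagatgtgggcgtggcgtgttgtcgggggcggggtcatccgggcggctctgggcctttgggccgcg
Each window held 1 match, the windows of Atp1b1 and Fxyd1 held 0, and 66.2% of the 32851 windows of the same length in the table held at least 1. The letters GGGAA (the core bound by the Ikaros family, to which Ikzf2 belongs) and ACAAT (a Sox core), searched on both strands, were in neither window shown, and in 56.2% and 27.7% of all windows. GGGAA had 1 match in the Fxyd1 window. GC content was 50.4% for Fxyd6 and 73.6% for Atp1b3, and the median of all entries was 52.4%. The table held 4 of the 7 genes, Atp1b3 with a further start not shown, whose window held 1 E-box match and 2 GGGAA matches. A match describes the letters alone, and no measurement here bears on binding.

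Fxyd6 encodes a FXYD protein known to bind the sodium pump in the inner ear and brain. It lies at chr9:45370185-45396159 on the plus strand (GRCm38), 3509 bases upstream of Fxyd2. In the WT_P60 SCs its level ran from 0 to 1265 CPM with a median of 492 CPM and a mean of 515 ± 448 CPM (SD, n = 16). The cells split widely. Fxyd6 lay between 90.7 and 1265 CPM in 12 of 16 SCs, an exact binomial 95% interval of 47.6% to 92.7%, and at or below about 1 CPM in SCs 5, 6, 8 and 16. In all 17 WT_P30 OHCs the gene had 0 counts. A count of 0 allows up to 3 counts per library, so the mean of the WT_P60 SCs was at least 1162-fold higher than that of the OHCs.

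In the 42 cells of Fgfr3-Atoh1-Ikzf2-DTR mice, Fxyd6 stayed below 1 CPM in every cell. The highest values were 0.326 CPM in the OHC-like cells, 0.252 CPM in the nascent HCs and 0.298 CPM in the failing SCs, and the median was 0 in all 3 groups. No library held more than 4 counts. Of the 7 induced cells with any Fxyd6 count, 5 were among the 7 cells of library series D, and 2 among the 35 cells of the other series. Series D was also deep, at 14162715 to 22934062 counts per cell, against at most 15549187 in the other induced cells. The part of depth in these low counts was not tested. Pooled over cells, 60294 counts in the WT_P60 SCs faced 4 in the OHC-like cells, 12 in the nascent HCs and 4 in the failing SCs. All 4 counts of the OHC-like cells were in cell 7, 3 of the 4 counts of the failing SCs in cell 15, and the 12 counts of the nascent HCs in 4 cells. These counts were too few, and came from too few cells, for a fold to be given. SCs 5, 8 and 16 lay within the range of the induced cells.

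Genes were tested with edgeR's quasi-likelihood test over all 5 groups at once, and a gene was called when its Benjamini-Hochberg adjusted p over all 11443 genes tested was under 0.001 and its log2 fold change over 2 in size. Atp1b1, Atp1b2, Atp1b3 and Fxyd6 passed the filter on low counts, Fxyd6 only through the WT_P60 SCs. A gene that enters only through the group where it is high has to differ, so the Fxyd6 results of this fit, which lay past both thresholds in its 4 comparisons with the WT_P60 SCs, are a description and no p is given for them. Without any filter on low counts, so that all 29042 genes with a count entered, Fxyd6 was called lower than in the WT_P60 SCs in the WT_P30 OHCs (edgeR adjusted p = 2.93e-13), the OHC-like cells (adjusted p = 9.94e-09), the nascent HCs (adjusted p = 8.46e-11) and the failing SCs (adjusted p = 2.18e-10). In filtered fits of only the 2 groups compared, the filter dropped Fxyd6 in 3 of these comparisons, all but that of the OHC-like cells, so that it was not tested there. Of the 11443 genes tested with the filter, 15.3%, 6.42%, 7.77% and 4.17% were called in these 4 comparisons, which share the WT_P60 SCs. No beta subunit gene was called in any of them. In the other 6 comparisons none of the 7 genes was called, against 10.6%, 13.2% and 14.7% of all genes for OHC-like cells, nascent HCs and failing SCs over WT_P30 OHCs, and 1.03%, 1.35% and 0.0787% for OHC-like cells over failing SCs, nascent HCs over failing SCs and OHC-like cells over nascent HCs. In these 6, taken in that order, 1, 1, 2, 2, 0 and 0 of the members had an unadjusted p under 0.05 in edgeR. DESeq2 called 0 in each. Over the OHCs, Fxyd6 was the only such member in the OHC-like cells and nascent HCs, and 1 of 2 in the failing SCs. It had 4, 12 and 4 counts there against 0 in the OHCs. As it entered the fit only through the WT_P60 SCs, no result is drawn from these. The comparison with the WT_P60 SCs rests on 1 library series of such cells, in which the endothelial marker Pecam1 reached 1 CPM in 9 of 16 cells, at up to 296 CPM, against at most 3 cells in any other group. The other endothelial marker, Cldn5, reached 1 CPM in 1 of the 16, with 12 counts. The summed level of both ran from 0 to 296 CPM with a median of 19.9 CPM in the SCs. Their part in the Fxyd6 result was not tested.

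**Figure D1:**
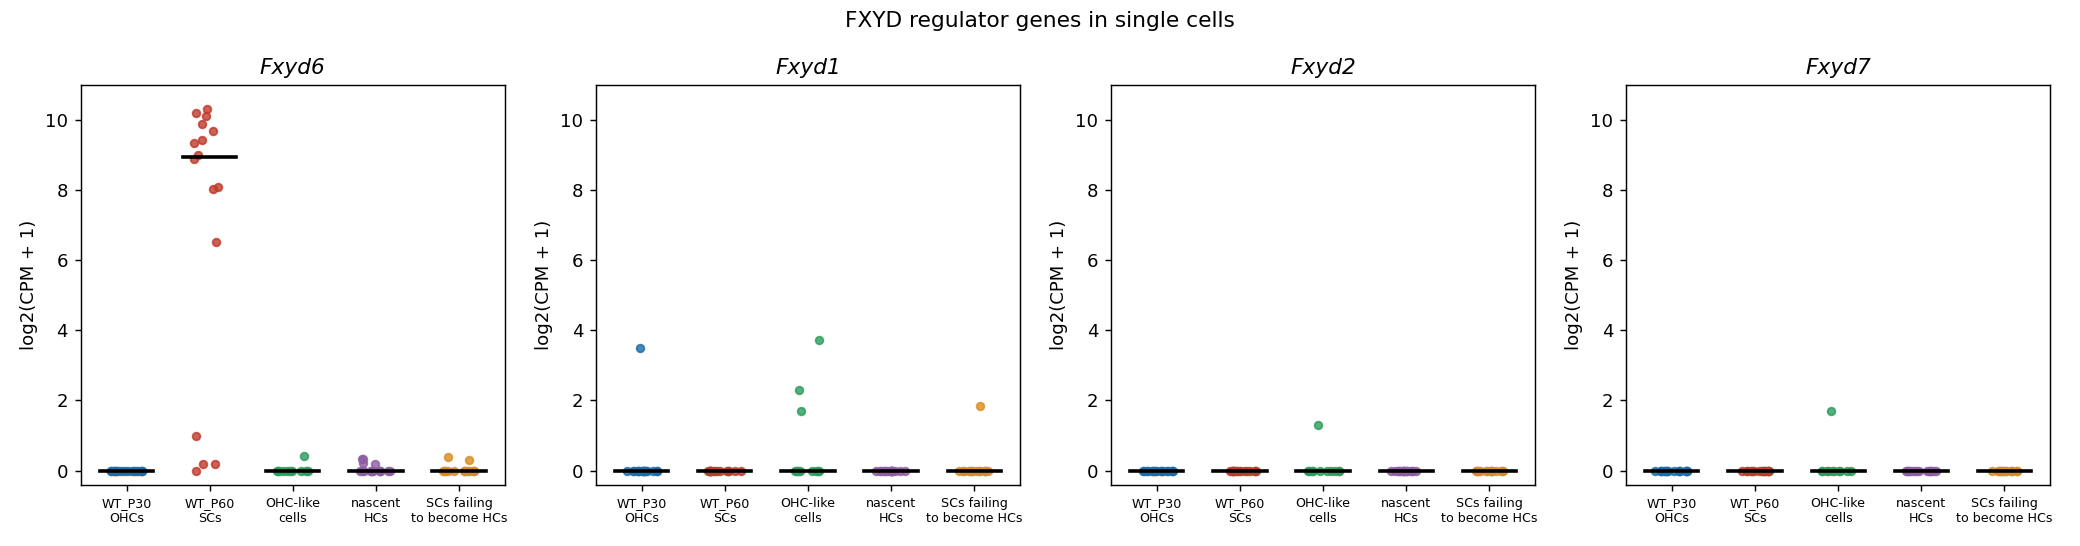
FXYD genes in each of the 75 cells, as log2(CPM + 1) on the vertical axis, with a point per cell, groups side by side and a black line at the group median. Fxyd6 lay high in 12 of 16 WT_P60 SCs and at or near 0 in every other group, while Fxyd1, Fxyd2 and Fxyd7 were at 0 in nearly all cells.

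The other FXYD genes were hardly measured. Fxyd1 encodes phospholemman, the pump regulator best known from heart and skeletal muscle. It had 269 counts in 5 cells: 10.2 CPM in OHC 8, 12.2 CPM in OHC-like cell 3, 3.90 CPM in OHC-like cell 11, 2.26 CPM in OHC-like cell 2 and 2.59 CPM in cell 12 of the failing SCs. It was not detected in 16 WT_P60 SCs or 16 nascent HCs. Detection in 3 of 11 OHC-like cells carries an exact binomial 95% interval of 6.02% to 61.0%, and 0 of 16 cells one of up to 20.6%, so the groups could not be told apart at this number of cells.

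Fxyd2 encodes the gamma subunit of the renal sodium pump, and Fxyd7 a regulator known mainly from brain. Both were counted in OHC-like cell 2 alone, with 11 counts (1.46 CPM) and 17 counts (2.26 CPM). This is the cell that also held Fxyd1, the most haemoglobin counts and the most genes detected of all 75 cells (9654). Fxyd7 and Fxyd1 are neighbours on chromosome 7, 210 bases apart on the same strand, as Fxyd6 and Fxyd2 are on chromosome 9. Of the 12 SCs that reached 1 CPM for Fxyd6, none had a Fxyd2 count, while the only cell with Fxyd7 counts also held 17 counts of Fxyd1.

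Atp1b2 encodes the beta2 subunit, described as an adhesion molecule on glia as well as a pump subunit. Its gene lies at chr11:69599736-69605942 on the minus strand. Every WT_P30 OHC had it, at 27.8 to 576 CPM with a median of 188 CPM and a mean of 231 ± 157 CPM (SD, n = 17). Every OHC-like cell had it too, at 119 to 446 CPM with a median of 233 CPM and a mean of 241 ± 112 CPM (SD, n = 11). In the WT_P60 SCs the range was 0 to 133 CPM with a median of 39.7 CPM, and 11 of 16 cells reached 1 CPM. The nascent HCs ranged from 0 to 254 CPM with a median of 93.1 CPM, and 13 of 16 reached 1 CPM. The failing SCs ranged from 0 to 358 CPM with a median of 26.9 CPM, and 9 of 15 reached 1 CPM.

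By median the order for Atp1b2 was OHC-like cells, WT_P30 OHCs, nascent HCs, WT_P60 SCs and failing SCs, and all neighbours in this order overlapped. The OHC-like values lay inside the range of the OHCs, and the fitted difference between these groups was 0.06 ± 0.96 (log2 fold change ± SE, adjusted p = 0.985), whose sign turned with the setting: it was -0.43 with the number of genes detected as a covariate, -0.20 with the scaling to library size alone, -0.01 with counts thinned to 1 total and at most 0.16 in the other settings. Over the WT_P60 SCs the log2 fold change was 2.36 ± 0.91 for the OHCs (adjusted p = 0.0467) and 2.42 ± 0.98 for the OHC-like cells (adjusted p = 0.0964), neither past the threshold of 0.001. These differences are larger than their standard errors, but the SC range of 0 to 133 CPM overlaps both groups. The nascent HCs lay at 1.20 ± 0.89 over the SCs and the failing SCs at 0.39 ± 0.89, values close to or below their standard errors. Mbp, described above, was at a median of 80.8 CPM in the OHC-like cells and 21.7 CPM in the nascent HCs. The part of such transcripts in the Atp1b2 levels was not tested.

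Atp1b3 encodes the beta3 subunit, found in many tissues. Its gene lies at chr9:96332655-96364442 on the minus strand. It was present in all 16 WT_P60 SCs, at 59.3 to 610 CPM with a median of 214 CPM and a mean of 255 ± 146 CPM (SD, n = 16). The failing SCs came next, with 0 to 464 CPM, a median of 85.1 CPM and 13 of 15 cells at 1 CPM or more. The nascent HCs had 0 to 154 CPM, a median of 52.3 CPM and 15 of 16 cells. The OHC-like cells had 0 to 85.1 CPM, a median of 28.4 CPM and 9 of 11 cells. The WT_P30 OHCs had the lowest median, 17.4 CPM, but the wide range of 0 to 326 CPM, with 13 of 17 cells at 1 CPM or more.

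The groups overlapped in each of the neighbouring pairs of this order. The largest fitted difference of any beta subunit gene was that of Atp1b3 in the OHC-like cells over the WT_P60 SCs, a log2 fold change of -3.05 ± 1.01 (SE, adjusted p = 0.0283), not past the threshold in edgeR, while DESeq2 put it past the threshold (adjusted p = 5.68e-04). The median over all genes in that comparison was 0.32, so Atp1b3 lay further from the typical gene than from 0. The nascent HCs lay at -1.96 ± 0.83 (adjusted p = 0.122), the OHCs at -1.70 ± 0.81 (adjusted p = 0.126) and the failing SCs at -0.71 ± 0.82 (adjusted p = 0.828), all over the WT_P60 SCs. Among the induced cells, OHC-like cells were at -2.34 ± 0.98 over failing SCs (adjusted p = 0.223).

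Atp1b1 encodes the beta1 subunit, the most widespread of the beta subunits. Its gene lies at chr1:164437109-164458355 on the minus strand, and 575 of its 3081 exon bases, 18.7%, are shared with exons of Nme7 on the opposite strand, so that reads there cannot be told apart unless strand was counted, which the sources used here do not state. The WT_P30 OHCs had 0 to 233 CPM with a median of 63.0 CPM, and 11 of 17 cells reached 1 CPM. The WT_P60 SCs had 0 to 146 CPM with a median of 20.1 CPM and 10 of 16 cells. All 11 OHC-like cells reached 1 CPM, from 1.10 to 350 CPM with a median of 25.0 CPM. The nascent HCs had the highest median, 117 CPM, with a range of 0 to 853 CPM and 15 of 16 cells at 1 CPM or more. The failing SCs had 0 to 271 CPM with a median of 1.11 CPM and 7 of 15 cells.

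None of the 10 comparisons of Atp1b1 passed the threshold. The largest was nascent HCs over WT_P60 SCs, 2.64 ± 1.13 (log2 fold change ± SE, adjusted p = 0.130), followed by nascent HCs over failing SCs, 2.13 ± 1.14 (adjusted p = 0.525), and OHC-like cells over nascent HCs, -2.04 ± 1.27 (adjusted p = 1). The neighbours in the order of medians overlapped throughout. The nascent HC level rested in part on 1 library series: the 4 nascent HCs of series E had a median of 726 CPM (128 to 853 CPM), those of series B 96.3 CPM (0 to 178 CPM, 6 cells) and those of series D 91.7 CPM (11.2 to 686 CPM, 4 cells). Without series E the log2 fold change over the WT_P60 SCs was 1.62 (adjusted p = 0.566). Within series B, D and E alike the median of the nascent HCs was above that of the OHC-like cells, which were at 16.2, 55.1 and 211 CPM (5, 3 and 2 cells). The cell highest in Atp1b1, nascent HC 15 at 853 CPM, was also the highest of all cells in the neuronal tubulin gene Tubb3, at 861 CPM. The summed level of the neuron markers Tubb3, Snap25 and Nefl had medians of 192 CPM in the OHCs, 0 in the WT_P60 SCs, 148 CPM in the OHC-like cells, 220.5 CPM in the nascent HCs and 0.507 CPM in the failing SCs. Snap25, which hair cells express too, alone had medians of 175 CPM in the OHCs, 144 CPM in the OHC-like cells and 150.3 CPM in the nascent HCs. Their part in the Atp1b1 levels was not tested.

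**Figure D2:**
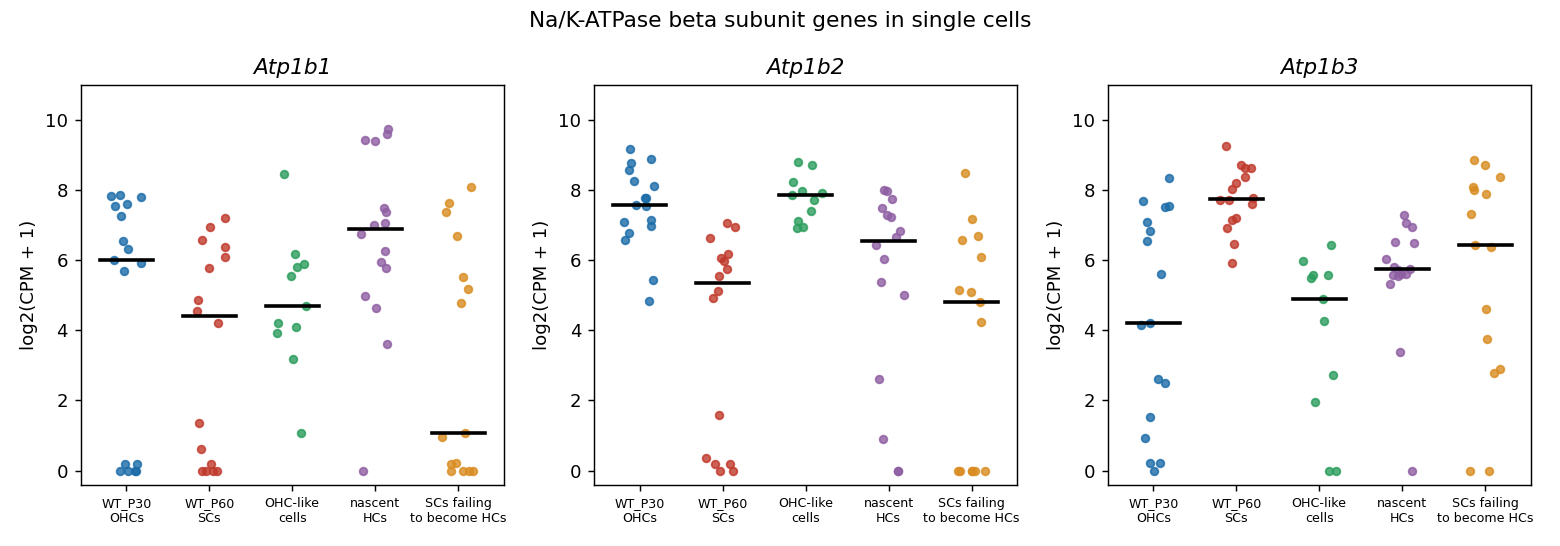
Beta subunit genes in each of the 75 cells, as log2(CPM + 1), with a point per cell and a black line at the group median. Atp1b2 was above 0 in all WT_P30 OHCs and OHC-like cells, Atp1b3 was highest in the WT_P60 SCs, and Atp1b1 scattered from 0 upward in 4 of the 5 groups.

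**Figure D3:**
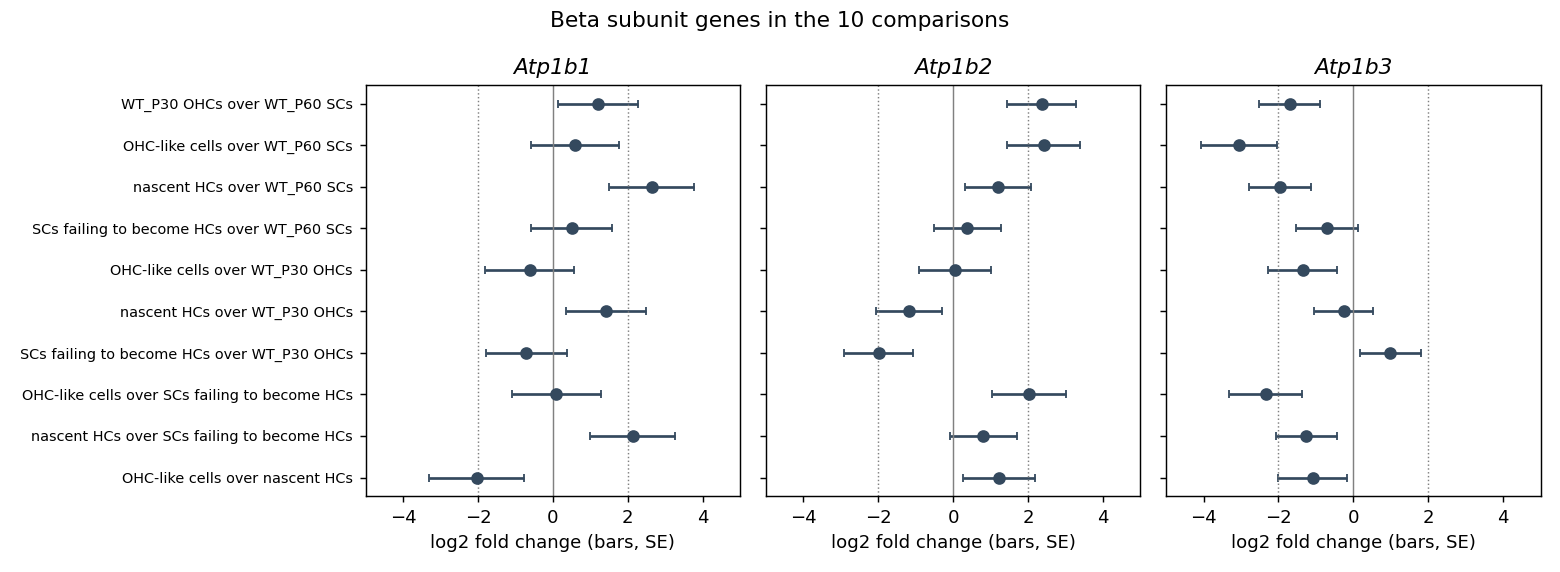
Log2 fold changes of the beta subunit genes in the 10 comparisons, with bars of 1 standard error derived from the edgeR F value. A solid line marks 0 and dotted lines mark -2 and 2, the size a call needs besides its adjusted p. Atp1b3 in OHC-like cells over WT_P60 SCs, at -3.05, is the point farthest from 0.

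**Figure D4:**
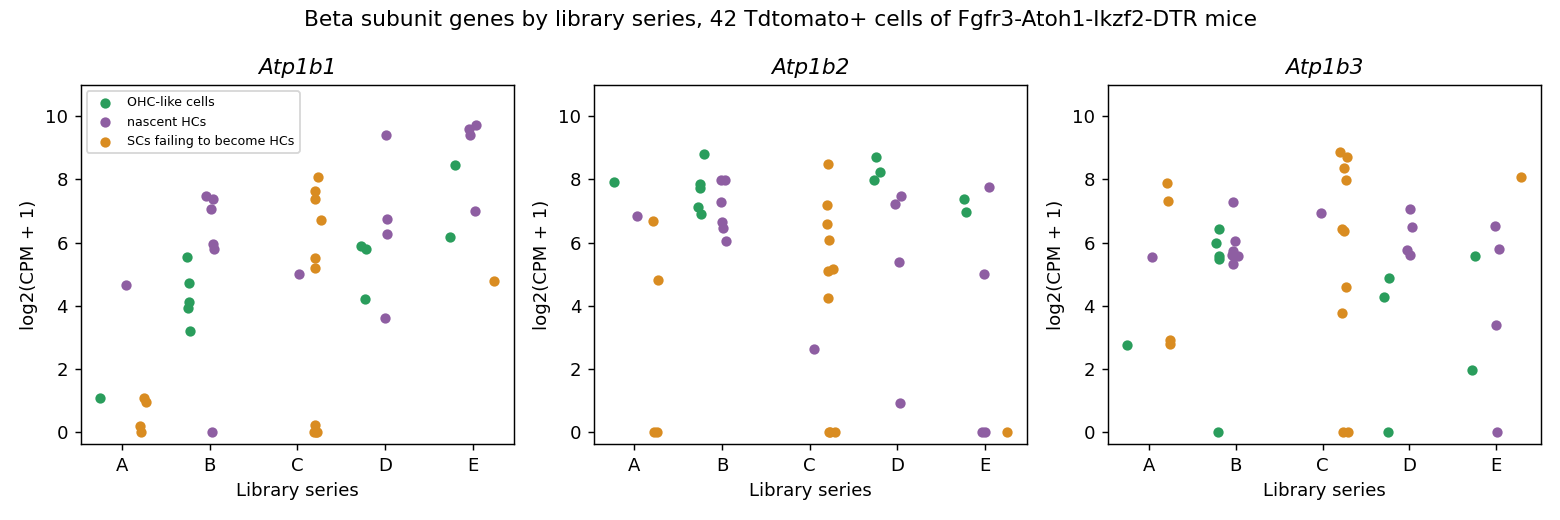
Beta subunit genes in the 42 cells of Fgfr3-Atoh1-Ikzf2-DTR mice by library series A to E (horizontal axis), as log2(CPM + 1), with a point per cell and a colour per group. The median Atp1b1 level of the series E nascent HCs, 726 CPM, was above the nascent HC medians of series B and D, although single cells overlapped, and the same cells had a median of 15.6 CPM for Atp1b2.

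For Atp1b2 and Atp1b3 the library series moved the values less evenly. The Atp1b2 medians of OHC-like and nascent cells were 210 and 128 CPM in series B, 301 and 95.0 CPM in series D and 145 and 15.6 CPM in series E, so the OHC-like cells had the higher median in each series with more than 1 cell of both groups. For Atp1b3 the order was the other way in these series, with 46.7 and 49.7 CPM in series B, 18.3 and 71.4 CPM in series D and 24.8 and 32.2 CPM in series E. The log2 fold changes of OHC-like cells over nascent HCs, 1.23 ± 0.96 for Atp1b2 and -1.09 ± 0.92 for Atp1b3 (adjusted p = 1 for both), were close to their standard errors.

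Levels can be set against each other between genes only per length of transcript, so counts were divided by exon length and scaled to the same sum in each cell (TPM). The summed TPM of the 3 beta subunit genes had medians of 321 in the WT_P30 OHCs, 292 in the WT_P60 SCs, 185 in the OHC-like cells, 185 in the nascent HCs and 197 in the failing SCs, with wide overlap (45.3 to 646 in the OHCs and 164 to 662 in the SCs). The make-up of that sum was then taken cell by cell. In the WT_P30 OHCs Atp1b2 made up a median of 49.8% (15.4% to 99.9%) and was the largest part in 9 of 17 cells. In the WT_P60 SCs Atp1b3 made up a median of 79.2% (31.1% to 99.8%) and was the largest part in 15 of 16 cells.

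The OHC-like cells had Atp1b2 as the largest part in 10 of 11 cells, with a median share of 69.7% (23.5% to 95.5%). The nascent HCs were mixed: Atp1b1 was the largest part in 8 cells, Atp1b2 in 5 and Atp1b3 in 3 of 16. The failing SCs had Atp1b3 as the largest part in 12 of the 14 cells with any beta subunit count, with a median share of 80.2%, and 1 cell of this group had no count of the 3 genes. Counted by cell, Atp1b2 exceeded Atp1b3 in TPM in 12 of 17 OHCs, 0 of 16 WT_P60 SCs, 11 of 11 OHC-like cells, 7 of 16 nascent HCs and 2 of 15 failing SCs. These shares are a description and were not tested, and a share can move because any of the 3 genes moves.

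**Figure D5:**
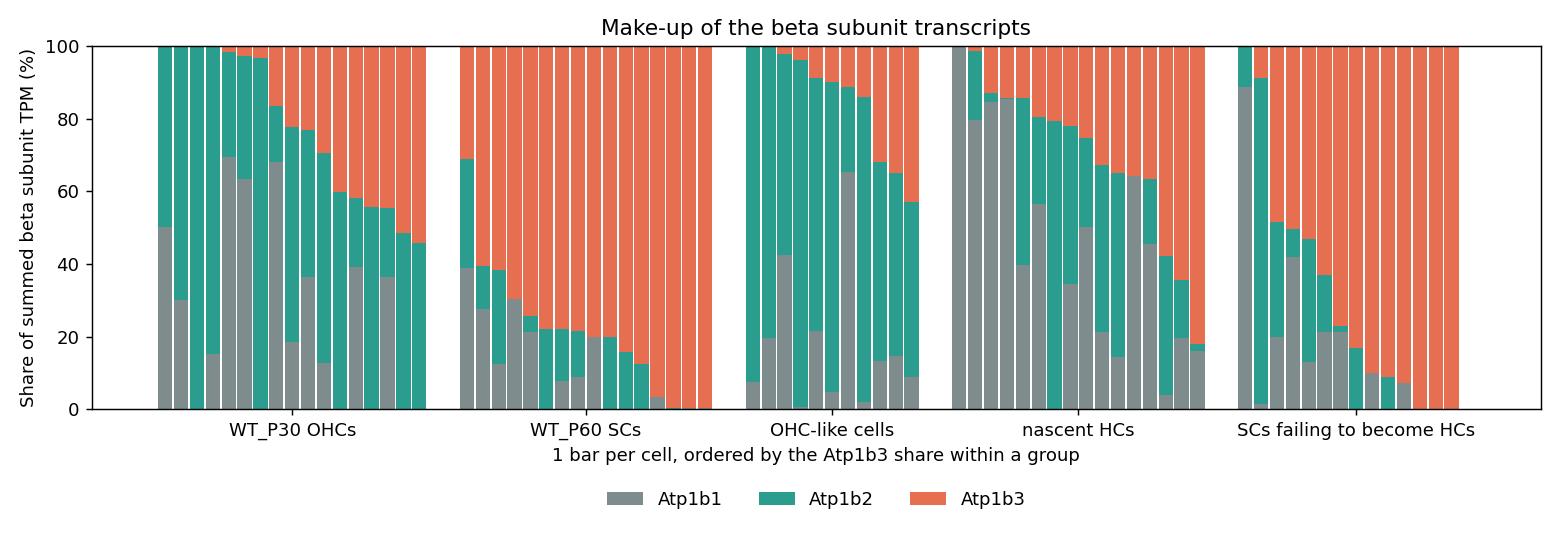
Share of each beta subunit gene in their summed TPM (vertical axis, percent), with a bar per cell, ordered by the Atp1b3 share within each of the 5 groups. Atp1b3 took the largest share in 15 of 16 WT_P60 SCs and Atp1b2 in 10 of 11 OHC-like cells, and 1 failing SC without any beta subunit count has no bar.

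Most cells held transcripts of more than 1 beta subunit gene. All 3 reached 1 CPM in 8 of 17 OHCs, 6 of 16 WT_P60 SCs, 9 of 11 OHC-like cells, 12 of 16 nascent HCs and 5 of 15 failing SCs. Across cells the 3 genes varied without a common direction. The correlation of log2(CPM + 1) between Atp1b1 and Atp1b2 was 0.14 over all 75 cells. It was -0.42 within the 16 nascent HCs and 0.51 within the 15 failing SCs, groups whose cells differ in library series and depth. The values are given as a description only.

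A list of 32 further genes of sodium and potassium handling was read in the same fit, and 18 of them were tested. In the WT_P30 OHCs over the WT_P60 SCs 4 were called higher and 3 lower, against 15.3% of all genes tested (568 higher, 1184 lower). The potassium channel genes Kcnj10 and Kcnj16, which serve potassium buffering in supporting cells and glia, were among the lower ones: all 16 SCs had Kcnj10 at 82.7 to 913 CPM, and the OHCs had none. Kcnj10 passed the filter only through the WT_P60 SCs, so its call is a description. The lower gene Slc9a3r1 encodes a scaffold protein of membrane transporters. The higher ones included the pump-interacting Nkain2, the kinase gene Sik1 and the sodium-calcium exchanger Slc8a1, each at 1 CPM or more in only 4 or 5 of 17 OHCs and in none of the 16 SCs. The median log2 fold change of the tested list genes was -0.76, and that of all genes tested -0.16.

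Over the WT_P60 SCs, 4 list genes were called higher and 1 lower in the OHC-like cells. The counts were 3 higher and none lower in the nascent HCs, and 2 higher and 1 lower in the failing SCs. Of all genes tested, 6.42%, 7.77% and 4.17% were called, 660, 722 and 387 higher and 75, 167 and 90 lower. Slc1a3, a glutamate transporter gene driven by the sodium gradient, was higher in all 3 groups, with 2 of 11, 5 of 16 and 7 of 15 cells at 1 CPM or more and none of the 16 SCs. In the OHC-like cells this rested on 1 library: OHC-like cell 1 held 4099 of their 4112 Slc1a3 counts and 2403 of their 2406 Kcnj16 counts, and also 619 CPM of the gene Bace2, which all 16 WT_P60 SCs had. Without that cell the Slc1a3 log2 fold change over the WT_P60 SCs went from 11.81 to 3.56 and was not called (adjusted p = 0.136). The log2 fold change of Kcnj16, not called with that cell, went from -5.05 to -14.59. The cell was picked after its Kcnj16 counts were seen, so this fall was fixed in advance and no p is given for it. Kcnj10 was lower in the OHC-like cells, where no cell had it, and in the failing SCs, where 1 of 15 did. Kcnj10 passed the filter only through the WT_P60 SCs, as Fxyd6 did, and Slc1a3 only through the induced cells. The calls of Kcnj10 and Slc1a3 are therefore a description. Kcnj10 reached 1 CPM in 2 of 16 nascent HCs and was not called there. Like Fxyd6, it was thus near 0 in most induced cells, but Kcnj16 was at 1 CPM or more in 11 of 15 failing SCs, in which Fxyd6 was below 1 CPM in all.

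Over the WT_P30 OHCs, 10.6%, 13.2% and 14.7% of all genes tested were called in the OHC-like cells, nascent HCs and failing SCs. Of these, 1145, 1349 and 1391 were higher and 66, 163 and 289 lower, so most calls went up. The list had 3, 4 and 5 genes called higher and none lower. Kcnj16, Slc1a3 and Slc9a3r1 were among them in each comparison, and Slc12a7, a potassium-chloride cotransporter gene, in the failing SCs. The calls of Slc1a3, and those of Kcnj10 in the nascent HCs and failing SCs, are a description because of how these genes passed the filter. Without OHC-like cell 1, Kcnj16 (adjusted p = 0.217) and Slc1a3 (adjusted p = 0.0983) were no longer called over the OHCs in the OHC-like cells, and Slc9a3r1 still was. With edgeR no list gene was called in the 3 comparisons among induced groups. Without OHC-like cell 1 the Kcnj16 log2 fold change of OHC-like cells over failing SCs went from -2.41 to -11.94. Over the nascent HCs it went from -0.60 to -10.12. That cell was picked after its Kcnj16 counts were seen, so no p is given and no result is drawn from these values. In OHC-like cells over failing SCs, nascent HCs over failing SCs and OHC-like cells over nascent HCs, 5, 2 and 3 list genes had an unadjusted p under 0.05, and DESeq2 called 2, 0 and 2. Fxyd4, the list's FXYD gene with the most cells, reached 1 CPM in 9 of 16 WT_P60 SCs and, unlike Fxyd6, in 10 of 15 failing SCs, at medians of 2.60 and 7.61 CPM.

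The genes whose levels ran most like each member's over the 75 cells were found by Pearson correlation of log2(CPM + 1) among the genes tested. For Fxyd6 they were Scube2 (r = 0.930), Mypn (0.871) and Loxl2 (0.867). They were found at 1 CPM or more in 13, 12 and 10 of 16 WT_P60 SCs and in at most 1 cell of any other group. Because the group difference alone sets much of r, it was also taken within the 16 WT_P60 SCs, where it was 0.750, 0.689 and 0.713. The genes were chosen by r over cells that include these 16, so these values are no independent check.

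For Atp1b2 they included Lhfpl5 (r = 0.623), a part of the hair cell transduction complex, and Calml4 (0.620), both at 1 CPM or more in 17 of 17 OHCs. Within groups, as deviations from the group means, the correlations were 0.328 and 0.336. For Atp1b3 they were Actn4 (0.613), Mal (0.599) and Itm2b (0.581), with 0.492, 0.461 and 0.490 within groups. For Atp1b1 they were Ssbp2 (0.464), Ube2e3 (0.461) and Trim27 (0.455), the weakest of the 4 sets. Cells within a group differed in depth, and those of the induced groups also in library series. The genes were chosen over these same cells, and the correlations are a description.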

How the data were processed

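The values are whole-number read counts per gene for 75 cells, deposited by the authors as 1 table. Per the study's methods and the submitters' processing notes, the tools were FastQC (0.11.9) for quality, Trimmomatic (0.39) for trimming and then reads were aligned to GRCm38 with HISAT2 (2.1.0) and counted with HTSeq (0.10.0); the annotation release and the strand setting are not given in the sources used here. Smart-Seq reads carry no molecular identifiers. A row for a viral element was left out.

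From the counts, TMM-scaled CPM were computed, and edgeR (4.0.16, R 4.3.3) fitted all 5 groups together with a quasi-likelihood test after filterByExpr (minimum count 10), which kept 11443 of 55291 genes. A gene was called at a log2 fold change past 2 in either direction with a Benjamini-Hochberg adjusted p below 0.001. DESeq2 (1.42.0), other scalings, filters, covariates, thinned counts and left-out cells were alternatives. Cells were grouped by their labels. Detection at 1 CPM was taken on the library total before TMM scaling. TPM used GENCODE M21 exon lengths, matched by symbol for 53292 genes. Log values are log2(CPM + 1). Standard errors (SE) were derived as the size of the log2 fold change over the square root of the test's F value. For shares of cells, exact Clopper-Pearson 95% intervals are given. Simulated data with known changes were used to test the fitting code.

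Named genes were the 7 members, the 3 tested genes most correlated with each tested member, the pathway genes called in any comparison, and landmark genes; SC 5, 6, 8 and 16, OHC-like cell 1 and Fxyd4 were named after their values were seen, and a few genes that these rules name are not reported here. The members and lists were chosen with earlier results of these data known.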

Additional observations from a re-analysis of the deposited data

How the results depend on the processing

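Over the settings in which Fxyd6 could be fitted, its log2 fold changes in the 4 comparisons with the WT_P60 SCs ran from -15.29 to -12.51. With the filter on low counts it entered only through the WT_P60 SCs, so these calls say nothing of stability, and the sizes depend on the prior count. In the fits of only the 2 groups compared, the filter removed it from OHCs, nascent HCs and failing SCs over WT_P60 SCs, which left 0 members called in each, since 12 expressing cells were too few for the filter. With the looser thresholds (log2 fold change past 1, adjusted p below 0.05) the count of members called was 2 for WT_P30 OHCs over WT_P60 SCs (with Atp1b2), 2 for OHC-like cells over WT_P60 SCs (with Atp1b3) and 1 for nascent HCs over WT_P30 OHCs (Fxyd6, from 12 counts in all). DESeq2 also called 2 for OHC-like cells over WT_P60 SCs. The other 129 counts were as in the main setting. Of the fitted log2 fold changes of single members, 505 kept sign and call, 4 crossed the threshold and 20 changed sign without a call in either setting, among them Atp1b2 in OHC-like cells over WT_P30 OHCs (-0.43 with genes detected as a covariate, -0.20 with library size only and -0.01 with thinned counts). The settings with the 42 induced cells alone without library series E and without OHC-like cell 1 were chosen after seeing the data. Scaling moved the median log2 fold change of all genes, from 0.61 with TMM to 0.36 with library size only for OHC-like cells over WT_P30 OHCs.

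Replicate numbers only name cells: deviations of same-numbered cells of different groups correlated at -0.0018 on average, and 5 of 75 cells had their best match outside the group in a cell of the same number. With the number as a replicate block the counts of members called did not change, and Atp1b3 in OHC-like cells over WT_P60 SCs was at -3.06 (adjusted p = 0.0530).

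Cells rather than animals are the unit of every test. Depth was at least 4264780 counts, and thinning all cells to that total changed no call of a member, and moved the cells at 1 CPM from 11 to 10 for Atp1b1 in OHC-like cells and from 12 to 13 for Fxyd6 in WT_P60 SCs. With any count above 0 as detection the share of cells was 94.1% for Atp1b3 in WT_P30 OHCs, 93.75% for Fxyd6 in WT_P60 SCs and 25.0% for Fxyd6 in nascent HCs.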
